A study of Homo sapiens with 6 samples.

Results

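The DNA replication and G1/S genes examined here are 44 named genes of the 58735 in the expression table. Each was found once by its gene symbol. They cover origin licensing, the replicative helicase, the polymerases, the sliding clamp and its loader, Okazaki fragment joining, nucleotide supply and the regulators of entry into S phase. The RNA came from Hep-G2, a human cell line of liver cancer origin, with 3 libraries in each of 2 groups. The sh-CLGN group carried a lentiviral short hairpin RNA against CLGN (genotype CLGN knock down), and the sh-NC group carried a control hairpin (genotype WT). Its target makes calmegin, which assists protein folding in the endoplasmic reticulum. All 6 libraries have the batch label 0DAY, and the transduced cells had been selected with puromycin. Each group used a single hairpin, so an effect of losing calmegin and an effect particular to that hairpin cannot be told apart. The labels do not say whether the 3 libraries of a group came from separate cultures, so p-values measure the spread between these libraries, which may be technical.

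Before S phase, cyclin D with CDK4 or CDK6 and cyclin E with CDK2 phosphorylate the retinoblastoma protein, which frees E2F factors to activate their targets. Many of these targets are the replication genes themselves. In G1 the origin recognition complex, CDC6 and CDT1 load the ring of MCM2 to MCM7 proteins on DNA. CDC45 and the GINS complex then turn this ring into a working helicase, and polymerases held by the PCNA clamp copy the strands. In liver cancer lines these genes are commonly read as a measure of how much a culture is cycling. In bulk RNA, fewer cells in S phase and less RNA per cell cannot be told apart.

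Because many members are known E2F targets, their promoters were searched for E2F motifs in RefSeq sequence on GRCh38.p14, from 250 bases before to 50 after each start. The letters searched were TTTCCCGC, TTTGGCGC, TTTCGCGC and TTTGCCGC on both strands, and matches may overlap. RefSeq entries were matched for 37 of the 44 members. Of their 48 promoters, 21 (43.8%) held a match, against 1164 of all 35116 promoters (3.32%). A match is a description of letters, and no match says only that these letters are not in the window. A match was found for 16 of the 29 members with an entry that fell in sh-CLGN, for 1 of the 2 that rose and for 3 of the 6 that were not called. The cell cycle homology letters TTTGAA and TTCGAA occurred in 2 of the 48 promoters (4.17%) and in 16.4% of all promoters. Stretches of 7 promoters are shown for members of each kind of response, read on the strand of the gene, with the motif in capitals. E2F1, E2F2, GINS2 and CDT1 fell, MCM6 rose, and PCNA and POLA1 were not called.
E2F1: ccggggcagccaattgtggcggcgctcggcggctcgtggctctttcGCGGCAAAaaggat
E2F2: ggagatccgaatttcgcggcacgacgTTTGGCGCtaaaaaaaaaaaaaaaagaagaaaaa
GINS2: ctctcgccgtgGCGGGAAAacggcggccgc
CDT1: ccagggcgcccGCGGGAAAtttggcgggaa
MCM6: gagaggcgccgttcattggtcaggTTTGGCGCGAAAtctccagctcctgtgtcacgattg
PCNA: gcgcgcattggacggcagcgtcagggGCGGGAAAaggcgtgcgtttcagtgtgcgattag
POLA1: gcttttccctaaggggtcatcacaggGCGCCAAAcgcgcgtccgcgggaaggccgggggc

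The E2F1 stretch lies at chr20:33686405-33686464 on the minus strand, and that of E2F2 at chr1:23531242-23531301 on the minus strand. The MCM6 stretch lies at chr2:135876498-135876557 and that of PCNA at chr20:5126648-5126707, both on the minus strand. The POLA1 stretch is at chrX:24693755-24693814 on the plus strand. These 5 lie before the RefSeq start and outside the exons of their gene in GENCODE 29. The shorter stretches of GINS2 (chr16:85688967-85688996, minus strand) and CDT1 (chr16:88803743-88803772, plus strand) also precede the RefSeq start, but lie in an exon of another transcript of the gene. In MCM6 the capitals join 2 overlapping matches on opposite strands. The E2F motif was therefore present in promoters of genes that fell, rose or were not called.

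The libraries held 14955816 to 16244639 reads on genes. At least 1 read was found on 23578 to 23793 genes in sh-NC against 26814 to 27006 in sh-CLGN, and mitochondrial genes took 3.25% to 4.02% and 5.49% to 5.80% of reads. CLGN measured 24.1, 21.0 and 26.1 FPKM (reads scaled by gene length and library size) in sh-NC against 9.48, 8.88 and 8.60 in sh-CLGN, and these ranges did not overlap. Its log2 change was -1.31 (SE 0.0807, adjusted p = 8.35e-06, limma with Benjamini-Hochberg adjustment). The labelled cell type is hepatocytes, and all 16 hepatocyte marker genes were detected, with summed levels of 8760 to 9000 FPKM in sh-NC against 8954 to 9577 in sh-CLGN. A list of 12 fibroblast genes summed to 15.7 to 17.9 FPKM in sh-NC against 137 to 142 in sh-CLGN, and all 7 that were tested rose. THY1, DCN and POSTN of the same list stayed under 0.1 FPKM in every library. The 7 that rose were COL1A1, COL1A2, COL3A1, SPARC, TAGLN, PDGFRB and LUM, and 26.7% of all tested genes were called higher. Of these 7, 3 (COL1A2, SPARC and PDGFRB) had at least 1 FPKM in all 6 libraries. COL1A1, COL3A1, TAGLN and LUM reached 1 FPKM in sh-CLGN only. They passed the filter through the group where they are high, so their calls carry no weight. Mean SPARC was 8.53 FPKM in sh-NC and 73.2 in sh-CLGN, and mean COL1A2 was 4.20 and 38.7. The part of this rise of fibroblast genes in the results below was not tested. The 6 endothelial genes summed to 3.36 to 3.67 FPKM in sh-NC against 2.38 to 2.65 in sh-CLGN, with VWF, KDR, TEK and ERG under 0.1. The 6 immune genes summed to 69.9 to 77.7 and 61.2 to 68.4 FPKM, with PTPRC, CD68 and CD3E under 0.1 in every library.

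DNA replication and G1/S genes were mostly lower in sh-CLGN. Of the 43 members tested, 33 fell, 2 rose (CDK6 and MCM6) and 8 were not called, at a limma adjusted p of at most 0.05. Over all 13074 genes tested, 39% were called lower and 26.7% higher, against 76.7% and 4.65% of the members. All 43 had at least 1 FPKM in all 6 libraries, so none passed the filter (1 FPKM in at least 3 libraries) through 1 group alone. The sh-NC and sh-CLGN libraries did not overlap for 34 lower and 2 higher members. That holds for 41.5% of all tested genes in the lower and 28.7% in the higher direction. The median log2 change of the 43 was -0.38, and that of all tested genes was -0.08. Changes were moderate, since 3 members, E2F2, CCNE1 and GINS2, also passed a log2 change of -1, as did 3.19% of all tested genes.

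**Figure D1:**
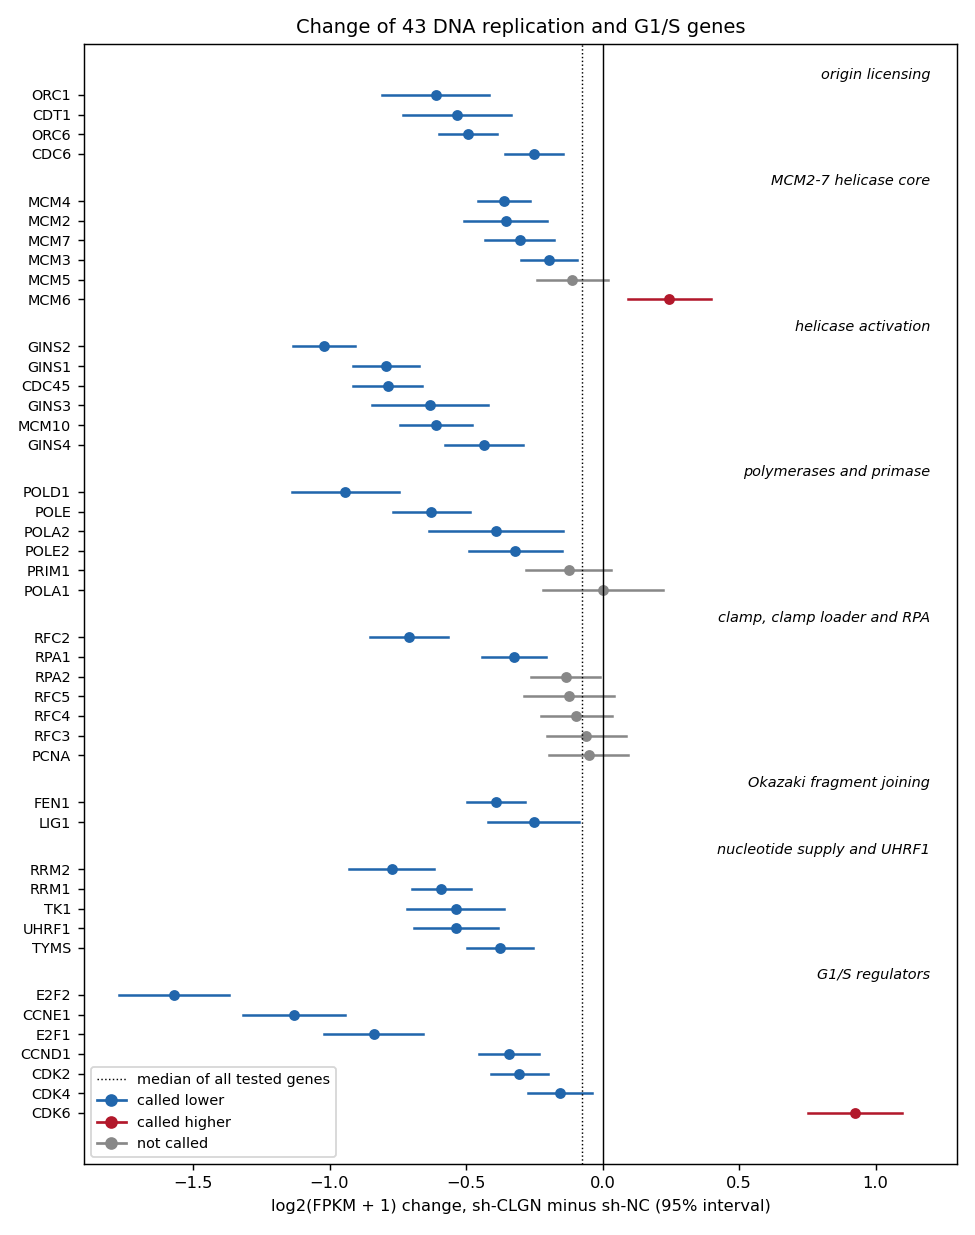
Log2(FPKM + 1) change of each tested member, sh-CLGN minus sh-NC (x axis), grouped by role, with bars for the 95% interval from limma and n = 3 libraries per group. Members run from -1.57 (E2F2) to 0.92 (CDK6) and 40 of 43 lie below 0. Of those called lower, CDK4, MCM3 and MCM7 were above 0 under quantile normalization, and CDK4 also under scaling by read totals and GC correction.

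The size of the shift depended on how libraries were scaled. The deposited values rest on library sizes of 0.933 to 0.953 of the summed reads for sh-NC libraries, but 1.07 to 1.08 for sh-CLGN libraries. Scaling by read totals moved the median of all tested genes from -0.08 to 0.08 and that of the members to -0.19, and rescaling to TPM moved them to 0.03 and -0.26. Relative to all tested genes the members' median was -0.30 as deposited, -0.27 by read totals and -0.29 by TPM. It was -0.22 after removal of a GC trend and -0.11 under quantile normalization. With read totals 26 members fell and 2 rose, while 26.2% of all genes fell and 37.9% rose. Under quantile normalization 21 fell and 5 rose, while 32.5% of all genes fell and 30.2% rose. A share of all reads on genes is also a scaling by read totals. The 44 members took 0.566%, 0.585% and 0.565% of the reads of the sh-NC libraries. They took 0.510%, 0.513% and 0.510% of the reads of the sh-CLGN libraries. The groups did not overlap, and the exact two-sided permutation p was 0.1, the smallest that 3 against 3 libraries allows.

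Origin licensing genes all fell, 4 of 4, with a median log2 change of -0.51, where 39% of all tested genes fell. Each role holds few genes, so the counts by role here and below are descriptions and were not tested. ORC1, the large subunit of the origin recognition complex, measured 14.3, 16.2 and 14.8 FPKM in sh-NC against 10.8, 8.64 and 9.24 in sh-CLGN. Every sh-CLGN library was below every sh-NC library, at 63.4% of the control mean, a log2 change of -0.61 (SE 0.0849, adjusted p = 0.000411, limma). CDT1, which brings the MCM ring to origins, measured 33.1, 32.7 and 26.5 FPKM in sh-NC against 20.7, 20.2 and 21.7 in sh-CLGN. One sh-NC library lay under the other two but above all sh-CLGN libraries, and the log2 change was -0.53 (SE 0.0854). ORC6, a small subunit of the same complex as ORC1, measured 16.9, 17.0 and 17.3 FPKM in sh-NC against 11.9, 12.1 and 11.6 in sh-CLGN. The libraries within each group of ORC6 were nearly equal and the groups were far apart (log2 change -0.49, SE 0.0460). CDC6, the ATPase that works with CDT1, changed least, by -0.25 on the log2 scale (adjusted p = 0.00174, limma). It lost its call under TPM rescaling, read totals and quantile normalization.

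The MCM2 to MCM7 ring did not change evenly. Of its 6 subunits, 4 fell (66.7%, against 39% of all tested genes), MCM5 was not called and MCM6 rose. Their median log2 change was -0.25. MCM4 measured 69.0, 70.4 and 68.9 FPKM in sh-NC against 53.2, 54.5 and 53.9 in sh-CLGN, and MCM2 measured 49.3, 52.5 and 45.4 against 36.6, 37.3 and 40.4. For both subunits all sh-CLGN libraries were below all sh-NC libraries, with log2 changes of -0.36 (SE 0.0410) and -0.35 (SE 0.0661), and both calls were lost under quantile normalization (-0.083 and -0.074). MCM7, the most abundant subunit in FPKM, measured 186, 178 and 166 in sh-NC against 141, 141 and 146 in sh-CLGN. Its groups did not overlap as deposited (log2 change -0.30, SE 0.0543, adjusted p = 0.00155, limma), but the value was 0.01 under quantile normalization, and the call was lost under GC correction (-0.063) and read totals (-0.11). MCM3 fell by 0.20 on the log2 scale, and its value was 0.09 under quantile normalization. The MCM3 call was also lost under GC correction, TPM, median-ratio and read-total scaling, at -0.089 to -0.0020. MCM5 had a log2 change of -0.11 (95% interval -0.24 to 0.02, adjusted p = 0.114, limma), and without sh-NC replicate 3 it passed at -0.16, but it was called higher under quantile normalization (0.15) and GC correction (0.13).

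MCM6 went the other way. It measured 31.6, 34.4 and 36.9 FPKM in sh-NC against 42.6, 40.7 and 39.0 in sh-CLGN, so that every sh-CLGN library was above every sh-NC library. The log2 change was 0.24 (SE 0.0660, adjusted p = 0.0116, limma), and MCM6 was called higher in each of the 19 alternatives. As these subunits form 1 ring, their ratio within a library was also taken, which needs no scaling between libraries. The ratio of MCM6 to MCM7 was 0.170, 0.193 and 0.223 in sh-NC against 0.303, 0.289 and 0.266 in sh-CLGN. Ratios of MCM6 to MCM2, MCM3 and MCM5 were also higher in each sh-CLGN library, by 1.53, 1.36 and 1.28 times. A ratio can still carry a trend with GC content, which was 43.1% for MCM6 and 57.6% for MCM7. The part of GC content in these and all other ratios given was not tested. All the ratios were chosen after the values were seen, so they are descriptions with no test. The gene lies at chr2:135839626-135876426 on the minus strand.

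MCMBP, which binds MCM subunits away from the assembled ring, was no member but stood out among the other replication genes. It measured 17.0, 17.7 and 19.0 FPKM in sh-NC against 4.37, 4.66 and 4.62 in sh-CLGN. The groups were widely separated, at 25.4% of the control mean, a log2 change of -1.77 (SE 0.0599, adjusted p = 1.05e-06, limma).

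Helicase activation genes fell most as a group, 6 of 6, with a median log2 change of -0.71, where 39% of all tested genes fell. GINS2, a subunit of the 4-protein GINS complex, measured 17.0, 16.8 and 16.5 FPKM in sh-NC against 8.04, 7.74 and 7.51 in sh-CLGN. The sh-CLGN libraries stood at 46.3% of the control mean with little spread in either group (log2 change -1.02, SE 0.0494, adjusted p = 3.19e-06, limma). GINS1 measured 41.5, 43.5 and 39.9 FPKM in sh-NC against 24.1, 24.1 and 22.7 in sh-CLGN, again with no overlap (log2 change -0.79, SE 0.0524). CDC45, which binds the MCM ring together with GINS, measured 24.7, 25.5 and 23.5 FPKM in sh-NC against 13.8, 14.4 and 13.2 in sh-CLGN. Its log2 change of -0.79 (SE 0.0542) was close to that of GINS1. GINS3 (-0.63), MCM10 (-0.61), which helps start the helicase, and GINS4 (-0.43) also fell. All 6 stayed called lower in every alternative. GINS3 was the lowest of them, with 121 to 237 reads per library.

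**Figure D2:**
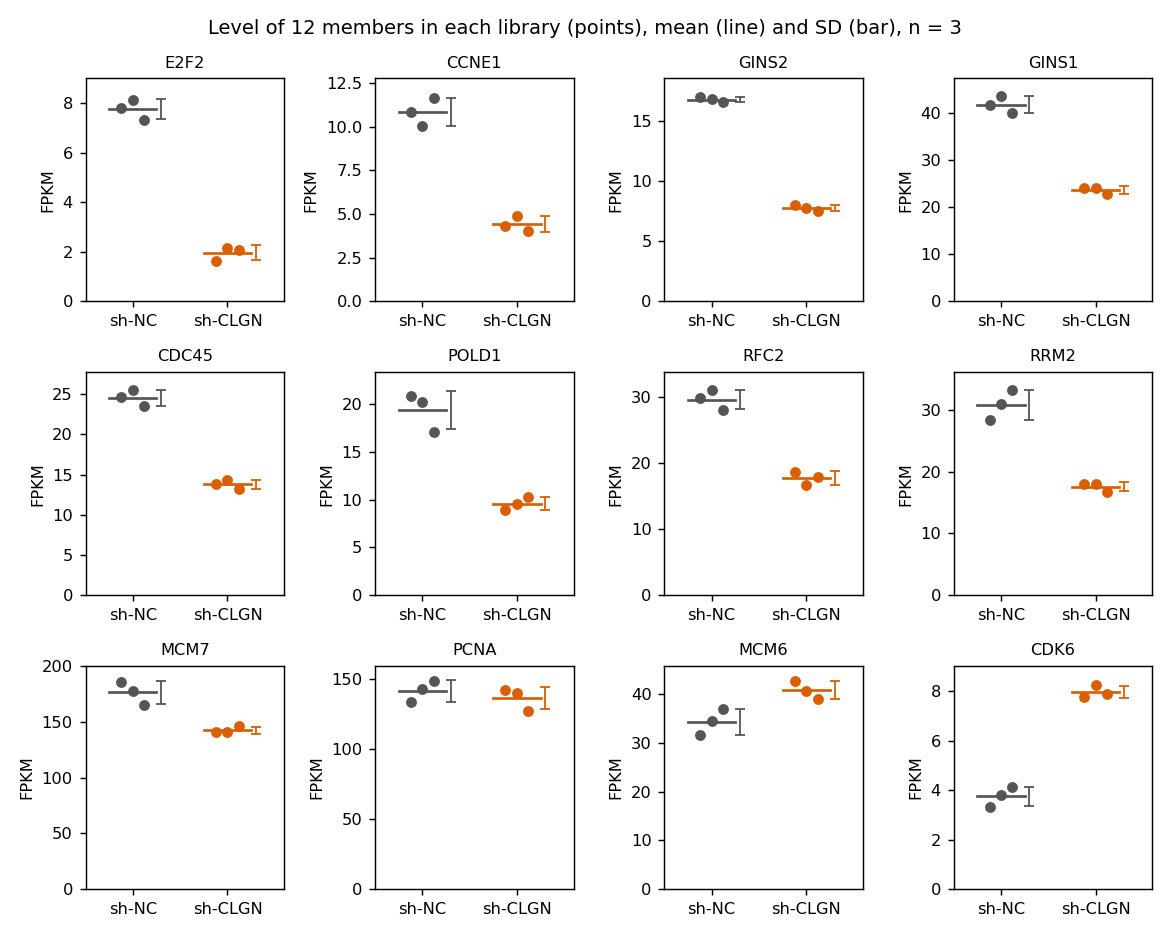
FPKM (y axis, from 0) of 12 members in each of the 3 sh-NC and 3 sh-CLGN libraries (points), with the group mean (line) and SD (bar). The groups are apart for E2F2, CCNE1, GINS2, GINS1, CDC45, POLD1, RFC2 and RRM2 (lower in sh-CLGN) and for CDK6 and MCM6 (higher); MCM7 is lower as deposited, though its change was 0.01 under quantile normalization, and PCNA overlaps.

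Of the polymerase and primase genes, 4 of 6 fell (66.7%, against 39% of all tested genes) and 2 were not called (median log2 change -0.35). POLD1, the catalytic subunit of polymerase delta, measured 20.9, 20.2 and 17.1 FPKM in sh-NC against 8.95, 9.52 and 10.3 in sh-CLGN. All sh-CLGN libraries were far below the controls, at 49.5% of their mean (log2 change -0.94, SE 0.0846, adjusted p = 4.45e-05, limma). POLE, the catalytic subunit of polymerase epsilon, measured 9.10, 9.43 and 9.09 FPKM in sh-NC against 5.26, 5.55 and 6.03 in sh-CLGN. The groups did not overlap and the log2 change was -0.63 (SE 0.0613). POLA2, the second subunit of the polymerase alpha complex, measured 2.24, 2.43 and 1.68 FPKM in sh-NC against 1.38, 1.41 and 1.31 in sh-CLGN. The groups of POLA2 lay close to each other (log2 change -0.39, SE 0.106), with 121 to 203 reads per library, and the call was lost after GC correction at -0.17. POLE2, which partners POLE, fell by 0.32, and its call was lost under read totals at -0.16. The other subunits of the polymerase alpha complex were not called. POLA1, its catalytic subunit, had a mean of 5.63 ± 0.845 FPKM in sh-NC against 5.60 ± 0.184 in sh-CLGN (SD, n = 3), with a 95% interval of the log2 change from -0.22 to 0.22. PRIM1, the catalytic primase subunit, had -0.12 (95% interval -0.28 to 0.03), and was called lower after GC correction at -0.22.

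The clamp, clamp loader and single-strand binding genes changed least, with 2 of 7 called and a median log2 change of -0.12. That is 28.6% called lower, against 39% of all tested genes. RFC2, a small subunit of the clamp loader, measured 29.7, 31.0 and 28.0 FPKM in sh-NC against 18.6, 16.6 and 17.9 in sh-CLGN. It stood at 59.9% of the control mean, with no overlap (log2 change -0.71, SE 0.0610, adjusted p = 3.69e-05, limma). Its partners in the same complex, RFC3, RFC4 and RFC5, were not called, with log2 changes of -0.06, -0.10 and -0.12, and their groups overlapped. All 3 values were above 0 under quantile normalization and read totals, while RFC3 was called lower after GC correction, at -0.21. The ratio of RFC2 to RFC4 within a library was 1.34, 1.51 and 1.34 in sh-NC against 0.892, 0.856 and 0.937 in sh-CLGN. The 2 groups of ratios did not overlap.

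RPA1, the large subunit of the single-strand binding protein, measured 42.1, 43.1 and 39.4 FPKM in sh-NC against 32.3, 32.9 and 33.7 in sh-CLGN, without overlap (log2 change -0.32, SE 0.0504), and the call was lost under quantile normalization at -0.043. RPA2, its middle subunit, measured 40.4, 41.3 and 45.3 FPKM in sh-NC against 38.2, 39.3 and 37.6 in sh-CLGN. The groups of RPA2 did not overlap but lay next to each other, and the log2 change of -0.14 missed the threshold (95% interval -0.26 to -0.01, adjusted p = 0.0601, limma). Without sh-NC replicate 1 RPA2 passed, at -0.17, but its value was above 0 under quantile normalization (0.14) and read totals (0.055). PCNA, the sliding clamp itself and a common proliferation marker, had means of 142 ± 7.68 FPKM in sh-NC against 137 ± 7.95 in sh-CLGN (SD, n = 3). These groups overlapped, with a log2 change of -0.05 (95% interval -0.20 to 0.09, adjusted p = 0.493, limma), the value was above 0 under 4 other scalings, and under quantile normalization PCNA was called higher at 0.27 (adjusted p = 0.00797, limma). The ratio of GINS2 to PCNA was 0.127, 0.117 and 0.111 in sh-NC against 0.0565, 0.0550 and 0.0588 in sh-CLGN, without overlap.

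**Figure D3:**
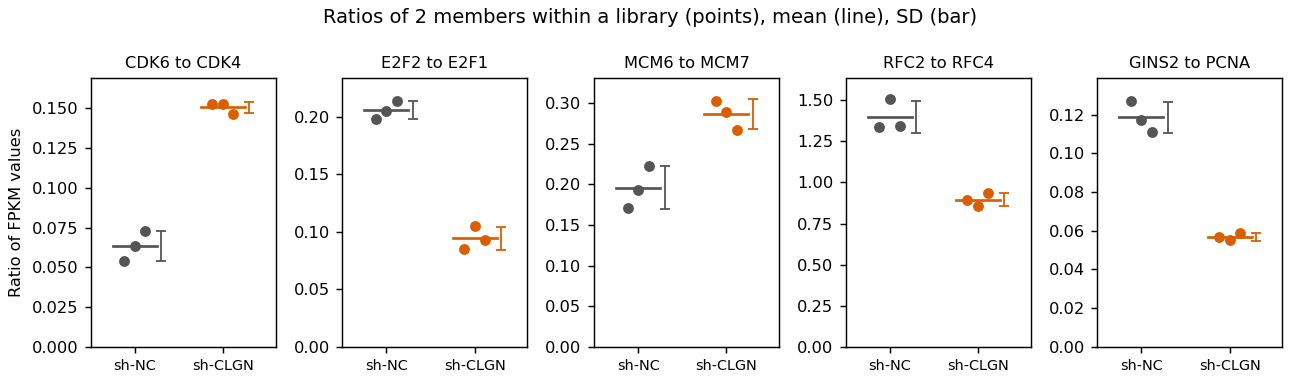
Ratio of the FPKM values of 2 members within each library (y axis, from 0), with points for libraries, a line for the mean and a bar for the SD (n = 3). CDK6 to CDK4 and MCM6 to MCM7 are higher in every sh-CLGN library, and E2F2 to E2F1, RFC2 to RFC4 and GINS2 to PCNA are lower in every one.

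Both Okazaki fragment joining genes fell, as did 39% of all tested genes. FEN1, the nuclease that trims the flap, measured 124, 134 and 126 FPKM in sh-NC against 98.2, 97.4 and 96.7 in sh-CLGN. The sh-CLGN libraries were all lower and close together (log2 change -0.39, SE 0.0459, adjusted p = 0.000173, limma), and the call was lost under quantile normalization at -0.068. LIG1, the ligase that seals the nick, measured 10.4, 10.8 and 9.22 FPKM in sh-NC against 7.82, 8.79 and 8.38 in sh-CLGN. Its groups were adjacent, and the log2 change of -0.25 (SE 0.0717, adjusted p = 0.0149, limma) was no longer called without sh-NC replicate 2 or without sh-CLGN replicate 1, each at -0.21. The call was also lost under GC correction (-0.016), TPM (-0.15), median-ratio (-0.16), quantile (-0.12) and read-total scaling (-0.076).

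Nucleotide supply genes and UHRF1 all fell, 5 of 5, with a median log2 change of -0.54, where 39% of all tested genes fell. RRM2, the small subunit of ribonucleotide reductase that is made in S phase, measured 28.4, 30.9 and 33.3 FPKM in sh-NC against 18.1, 18.0 and 16.7 in sh-CLGN. Every sh-CLGN library lay well below the controls, at 57.1% of their mean (log2 change -0.77, SE 0.0671, adjusted p = 3.82e-05, limma). RRM1, the large subunit of the enzyme, measured 32.0, 32.7 and 34.3 FPKM in sh-NC against 21.8, 21.2 and 21.7 in sh-CLGN. It fell by 0.59 with no overlap (SE 0.0469), and the ratio of RRM2 to RRM1 was 0.875 times that of the controls. TK1, the cytosolic thymidine kinase, measured 74.5, 74.8 and 63.1 FPKM in sh-NC against 48.6, 45.6 and 50.9 in sh-CLGN. The lowest control of TK1 was still above the highest sh-CLGN library (log2 change -0.54, SE 0.0766). UHRF1, which guides maintenance methylation of new DNA, fell by 0.54, and TYMS, the thymidylate synthase, by 0.38, with the TYMS call lost under quantile normalization (-0.12).

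Of the 7 tested G1/S regulators, 6 fell (85.7%, against 39% of all tested genes) and CDK6 rose (median log2 change -0.34). E2F2, an activator E2F, had the largest change of all members, at 7.79, 8.13 and 7.33 FPKM in sh-NC against 1.62, 2.17 and 2.09 in sh-CLGN. The sh-CLGN libraries stood at 25.3% of the control mean, with 150 to 648 reads per library (log2 change -1.57, SE 0.0871, adjusted p = 5.58e-06, limma). The gene lies at chr1:23506430-23531220 on the minus strand of GRCh38. CCNE1, or cyclin E1, the partner of CDK2 at the entry into S phase, measured 10.8, 10.05 and 11.7 FPKM in sh-NC against 4.30, 4.90 and 4.03 in sh-CLGN. It stood at 40.7% of the control mean with wide separation (log2 change -1.13, SE 0.0802, adjusted p = 1.48e-05, limma). It lies at chr19:29811898-29824308 on the plus strand. CCNE2, or cyclin E2, was the member that failed the filter, at 0.864, 0.826 and 0.882 FPKM in sh-NC against 1.11, 0.916 and 0.859 in sh-CLGN. These values overlapped, rested on 53 to 83 reads per library and were not tested.

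E2F1, the other activator E2F among the members, fell by 0.84 (SE 0.0785), from a mean of 37.8 ± 2.99 to 20.7 ± 1.72 FPKM (SD, n = 3). The ratio of E2F2 to E2F1 was 0.198, 0.205 and 0.214 in sh-NC against 0.0853, 0.105 and 0.0931 in sh-CLGN, lower in every one. CCND1 (cyclin D1) fell by 0.34 and CDK2 by 0.31, each with no overlap between the groups. Both calls were lost under quantile normalization (-0.018 and -0.093), and that of CDK2 also under read totals (-0.12). CDK4 had a log2 change of -0.16 (adjusted p = 0.0262, limma). That call was lost without sh-NC replicate 1 or 2 and without sh-CLGN replicate 1 or 2, and the value was above 0 under quantile normalization, where it was called higher at 0.14, and under read totals and GC correction.

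CDK6, the other kinase that pairs with cyclin D, rose. It measured 3.33, 3.79 and 4.12 FPKM in sh-NC against 7.78, 8.27 and 7.89 in sh-CLGN, which puts each sh-CLGN library far above each control. The mean was 213% of the control mean, and the log2 change was 0.92 (SE 0.0742, adjusted p = 2.65e-05, limma), between 0.79 and 1.16 in the 19 alternatives. The ratio of CDK6 to CDK4 was 0.0542, 0.0635 and 0.0730 in sh-NC against 0.153, 0.153 and 0.146 in sh-CLGN, 2.37 times higher with no overlap. CDK4 remained the more abundant of the pair per length. CDK6 lies at chr7:92604921-92836594 on the minus strand.

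Base composition moved with these changes. Over all tested genes with a known GC content, the change correlated with GC content at a Spearman rho of -0.32, and over the 43 members at -0.39. Genes share libraries and are not independent, so both are descriptions. Of the 25 members above the median GC content of all tested genes (48.1%), 24 fell, where 50.8% of all genes on that side fell. Of the 18 at or below it, 9 fell, where 27.3% of all genes on that side fell. The median log2 change of the members was -0.39 on the high side (all genes -0.23) and -0.19 on the low side (all genes 0.06). CDK6 (39.5%) and MCM6 (43.1%) both lie on the low side. After a GC trend was removed from each library, 30 members fell and 3 rose, the added one being MCM5 at 0.13, while 34.3% of all genes fell and 32.8% rose. CDK4, LIG1, MCM3, MCM7 and POLA2 lost their calls, and PRIM1 and RFC3 became lower. E2F2 was the one member that kept a log2 change beyond -1. The part of GC content in the members' changes was not otherwise tested.

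**Figure D4:**
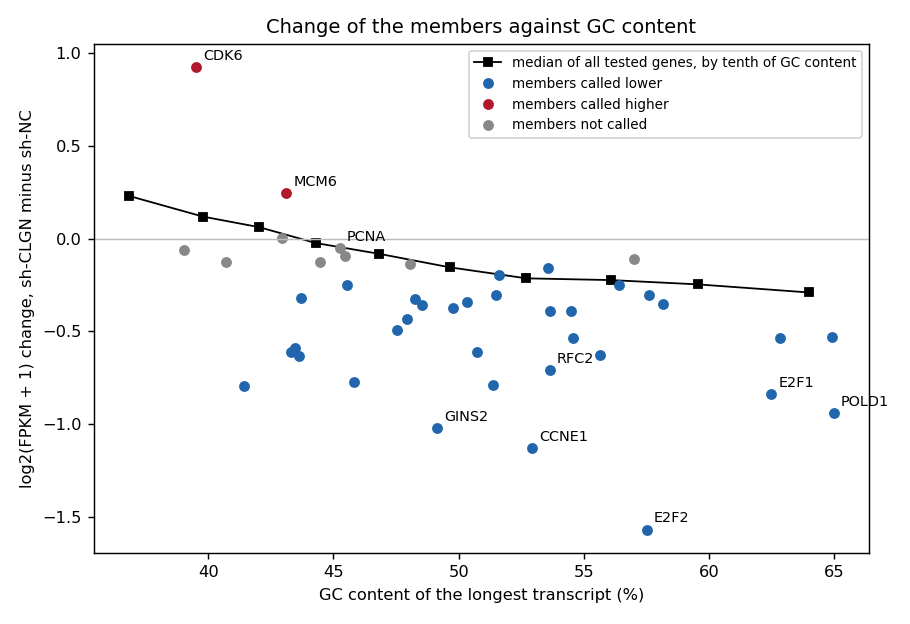
Log2(FPKM + 1) change, sh-CLGN minus sh-NC (y axis), of the 43 tested members against the GC content of their longest transcript (x axis, percent), with squares for the median of all tested genes in 10 equal bins of GC content. That median runs from 0.23 in the lowest to -0.29 in the highest bin, and most members lie below it. CDK6 and MCM6 lie above it, and so do some others such as MCM5 and CDK4.

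Some members share exon bases with another gene, and whether reads were counted by strand was not stated. The largest shared parts were 43.2% of the length of CDK4 (with TSPAN31), 39.1% of TYMS (ENOSF1), 37.0% of CCNE2 (INTS8) and 35.1% of POLA2 (AP000944.2). Next came 22.7% of MCM2 (AC023593.1), 21.2% of GINS4 (AC009630.2) and 20.2% of RRM2 (AC007240.1). Shared length does not give the number of reads affected, which was not tested. Reads per library were 185 to 304 on TSPAN31, 1002 to 1238 on ENOSF1 and 564 to 758 on INTS8. They were at most 24 on AP000944.2, AC023593.1, AC009630.2 and AC007240.1. Shorter overlaps included neighbours with more reads than the member. On the same strand, PRIM1 shared 1.35% of its length with NACA (4059 to 5977 reads) and FEN1 1.98% with FADS2 (6063 to 12887). On the opposite strand, RFC5 shared 5.72% with WSB2 (1057 to 1591 reads). Processed pseudogenes of RRM2, PCNA, RPA2 and other members held at most 3 reads in any library.

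Lower calls covered 39% of all tested genes and higher calls 26.7%, with a median log2 change of -0.08. Of 45 tested genes on a list of further replication genes, 20 fell (44.4%) and 8 rose (17.8%), with a median of -0.14. Its share of lower calls was thus near that of all tested genes. Besides MCMBP, the genes of this list that changed most were CHAF1B (-0.98), a histone chaperone at the fork, and DUT (-0.96), which removes dUTP. They were followed by TIMELESS (-0.94), which protects the fork, and POLD2 (-0.70), a partner of POLD1. All 5 fell. Of 28 further G1/S regulators, 19 fell and 4 rose (67.9% and 14.3%, median -0.37). The phosphatase CDC25A (-0.75), FZR1 (-0.75), an activator of the anaphase-promoting complex, MYC (-0.70), MYBL2 (-0.69) and E2F5 (-0.66) changed most.

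Of the 8 CDK inhibitors, which oppose the kinases above, 5 fell and 1 rose. That is 62.5% and 12.5%, against 39% and 26.7% of all tested genes. CDKN1A (p21), which blocks CDK2, measured 16.1, 15.5 and 13.0 FPKM in sh-NC against 6.36, 5.94 and 5.91 in sh-CLGN, so every sh-CLGN library was lower (log2 change -1.16, SE 0.0807, adjusted p = 1.35e-05, limma). CDKN2B, an inhibitor of CDK4 and CDK6, measured 12.9, 12.7 and 12.6 FPKM in sh-NC against 19.2, 19.8 and 21.7 in sh-CLGN, so every sh-CLGN library was higher (log2 change 0.62, SE 0.0570). CDKN2D (-0.56), CDKN2C (-0.52), CDKN2A (-0.38) and CDKN1B (-0.30) were called lower. The last pair lost that call under quantile normalization (-0.19 and -0.022), and CDKN1B also under read totals (-0.11). CDKN1C (-0.01) and CDKN3 (0.03) were not called, and both changed sign when single libraries were left out. CDKN3 was called higher under quantile normalization (0.26), and CDKN1C under GC correction (0.28).

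Mitosis and spindle genes, which act later in the cycle, fell in 24 of 39 tested cases and rose in 6 (61.5% and 15.4%, median -0.31). The largest changes were in ESPL1 (-1.08), which cuts cohesin, SPC24 (-1.01), a kinetochore subunit, CDC25C (-0.90), CENPF (0.85) and AURKA (-0.82). Homologous recombination and Fanconi genes fell in 14 and rose in 9 of 33 cases (42.4% and 27.3%, near the 39% and 26.7% of all tested genes, median -0.16), with TOP3A (-0.82), FANCE (-0.71), BARD1 (-0.64) and FANCM (0.62) among the most changed. The differences in these shares from those of the members were not tested.

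**Figure D5:**
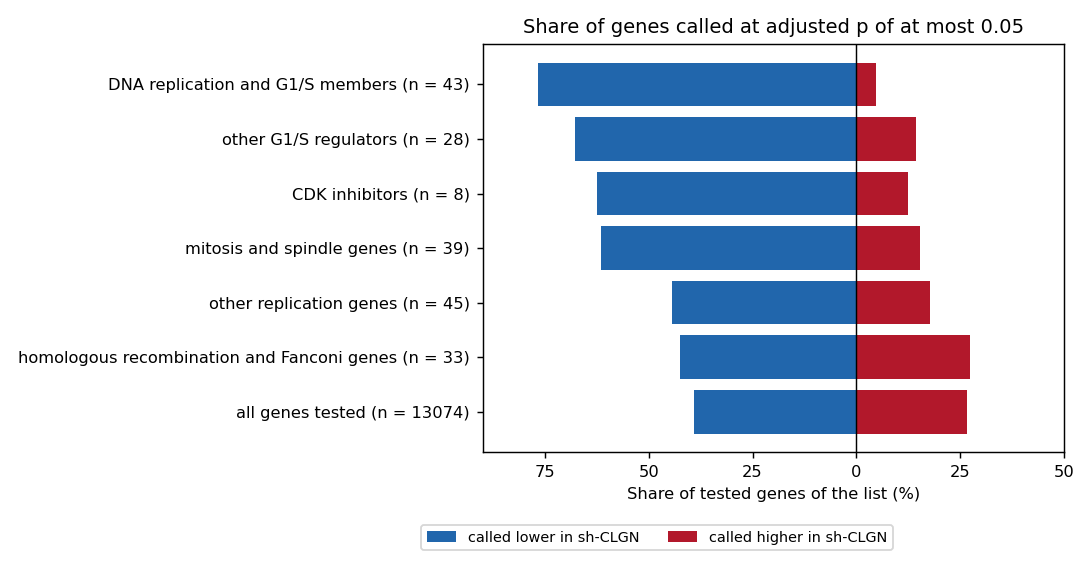
Share of the tested genes of each list (x axis, percent) called lower (left of 0) or higher (right of 0) in sh-CLGN by limma at an adjusted p of at most 0.05. Of the members 76.7% were lower and 4.65% higher, and over all 13074 tested genes 39% and 26.7%.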

How the data were processed

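RNA from 3 sh-NC and 3 sh-CLGN libraries of Hep-G2 cells had been made into libraries with a NEBNext Ultra kit. The submitters' processing notes name HISAT2 2.0.5, featureCounts and GRCh38, while strand setting and annotation version were not given in the sources used here. The authors gave FPKM values by gene and library in 1 deposited table, and 58690 of its 58735 gene positions equal GENCODE 29. FPKM times gene length gave whole reads for 100% of values (within 0.01 read), so reads per library could be recovered, and a count model (voom) on them was run as an alternative. These reads carry no molecular identifiers.

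Genes reaching 1 FPKM in 3 or more libraries (13074) were fitted with limma 3.58.1 in R 4.3.3 (eBayes, intensity trend) on log2(FPKM + 1), a scale that understates changes of low genes. Two-sided p-values were adjusted over all 13074 genes by Benjamini-Hochberg, and a call needed an adjusted p no higher than 0.05. Named by rule were all 44 members, with values in every library for the 3 largest changes of each role, members that failed the filter and those opposite to their role. From the other lists the 5 largest changes among called genes were named. One gene selected in this way is not reported here. Members and lists were chosen with earlier results of these data known, so lists get counts and medians and no set test.

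Alternatives were a pseudocount of 0.1, all genes unfiltered, a filter at a mean of 0.1 FPKM, TPM, quantile, median-ratio and read-total scaling, limma without trend, robust eBayes, voom, a replicate block, GC correction (lowess span 0.3), protein-coding genes only, and leaving out each library. Libraries of a group differed by 2.04 to 7.14 chi-square units per gene and across groups by 55.6 to 67.7, so none was a copy of another. Scripts were tested on simulated data. Motifs and ratios were computed in Python 3.11.15 (scipy 1.17.1, pandas 2.3.3, numpy 2.4.6), and plots drawn with matplotlib 3.10.9.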

Additional observations from a re-analysis of the deposited data

How the results depend on the processing

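Of the 35 members called, 21 kept their call in all 19 alternatives (19 lower, with CDK6 and MCM6 higher), and 14 lower members lost it in at least 1 (CCND1, CDC6, CDK2, CDK4, FEN1, LIG1, MCM2, MCM3, MCM4, MCM7, POLA2, POLE2, RPA1 and TYMS). The members' median of -0.38 became -0.22 with GC correction, -0.26 by TPM, -0.27 by median-ratio, -0.12 by quantile and -0.19 by read-total scaling. Quantile normalization gave 21 lower and 5 higher members. Members past both thresholds numbered 3, against 1 with GC correction and 5 with a pseudocount of 0.1 or voom.

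Leaving out 1 library gave 31 to 34 lower, 2 higher and 3 to 4 members past both thresholds, a median of -0.40 to -0.36 and a CLGN log2 change of -1.39 to -1.24. Library numbers did not pair the samples (correlations of same-numbered deviations -0.0184, -0.0460 and -0.146). With the replicate block 32 members were lower and 2 higher, 3 past both thresholds, and CDK4 was no longer called, at -0.16.

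Some log2 changes turned sign, of which PCNA, CDK4 and MCM5 under quantile normalization and MCM5 and CDKN1C under GC correction were then called higher. With quantile normalization they were CDK4 0.14, MCM3 0.091, MCM5 0.15, MCM7 0.011, PCNA 0.27, RFC3 0.16, RFC4 0.14, RFC5 0.021 and RPA2 0.14. With read totals they were CDK4 0.036, CDKN1C 0.12, MCM5 0.077, PCNA 0.14, PRIM1 0.050, RFC3 0.13, RFC4 0.091, RFC5 0.054 and RPA2 0.055. With TPM they were CDKN1C 0.094, MCM5 0.012, PCNA 0.076, RFC3 0.063 and RFC4 0.027, and with median-ratio scaling CDKN1C 0.059, PCNA 0.055, RFC3 0.042 and RFC4 0.0066. With GC correction they were CDK4 0.049, CDKN1C 0.28, MCM5 0.13 and POLA1 -0.026, and with voom POLA1 -0.0018. With 1 library left out CDKN1C ran from -0.057 to 0.027, CDKN3 from -0.062 to 0.088 and POLA1 from -0.10 to 0.082. The causes were not tested. With 3 libraries a group, an exact permutation test cannot go below 0.1.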
